A study of Mus musculus with 2 samples.

Results

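The T cells described here are 155 of the 22960 cells that passed the filters in 2 single-cell RNA libraries of sorted cells from ischemic mouse brain, 82 of 15050 in replicate 1 and 73 of 7910 in replicate 2. The mice were Foxp3Egfp animals of 6 to 8 weeks, which carry a green fluorescent reporter at Foxp3, the master gene of regulatory T cells. Cells gated as CD45+CD11b+CD3-F4/80+ were sorted by flow cytometry, named as infiltrated macrophages by the submitters, and read with droplet 3′ sequencing that counts unique molecular identifiers (UMIs). Both libraries belong to this 1 group, and no uninjured or untreated group is used here. The labels do not say whether the libraries came from separate animals or pools. The p-values thus measure only how class differences vary between these 2 libraries, a spread that may be technical. Barcodes counted as cells from 1000 UMIs and 500 genes upward, with mitochondrial genes at 10% or less. A cell was taken as a T cell if the genes P2ry12, Tmem119, Sparc, Gpr34, Olfml3 and Siglech, which mark microglia, summed to under 10 per 10000 UMIs, if Cd3d, Cd3e and Cd3g together had at least 1 UMI, if those with Trac and Trbc2 had at least 2 UMIs, and if S100a8 and S100a9 summed to under 50 per 10000. The T cells were thus chosen by their own measured UMIs, and those values are given below as a description, with no test. The libraries held 101893367 UMIs in replicate 1 and 62850768 in replicate 2, of which the T cells held 251047 and 269289.

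T cells recognise antigen through the T cell receptor, a pair of variable chains (alpha with beta, or gamma with delta) that cannot signal alone. The CD3 chains gamma, delta and epsilon, encoded by Cd3g, Cd3d and Cd3e, sit beside the receptor with the zeta chain of Cd247 and carry the phosphorylation sites that Lck and Zap70 use. CD8 T cells see antigen on class I molecules and can kill or secrete interferon gamma, CD4 T cells see it on class II molecules and help other cells, and both are known to enter the brain after stroke.

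The 3 CD3 genes lie together on mouse chromosome 9 (GRCm38, GENCODE annotation): Cd3g at chr9:44969572-44980431 on the minus strand, Cd3d at chr9:44981786-44987339 on the plus strand and Cd3e at chr9:44998740-45009627 on the minus strand. Cd3g and Cd3d are read away from each other, from starts 1355 bases apart, and the start of Cd3e is 27841 bases from that of Cd3d. Their promoters are shown because these genes define the cells and were found together in many of them. Each run is 300 bases of RefSeq sequence (GRCm38.p6), from 250 bases before the start to 50 after it, 5′ to 3′ on the strand of the gene, where all 3 genes matched. That start is RefSeq's, and for Cd3e it lies inside the GENCODE gene rather than at its end, while for Cd3d and Cd3g both annotations give the same start. Capitals mark CACCTG, the opposite strand of the E-box CAGGTG, and CACTTCCT, the opposite strand of the ETS-type word AGGAAGTG.
Cd3d promoter, chr9:44981536-44981835, plus strand: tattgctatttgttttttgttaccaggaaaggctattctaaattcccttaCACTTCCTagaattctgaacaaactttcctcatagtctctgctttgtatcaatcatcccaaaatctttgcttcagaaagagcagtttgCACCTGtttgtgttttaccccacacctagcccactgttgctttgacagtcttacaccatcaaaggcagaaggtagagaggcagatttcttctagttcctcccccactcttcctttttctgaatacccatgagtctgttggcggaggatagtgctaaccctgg
Cd3e promoter, chr9:45009562-45009861, minus strand: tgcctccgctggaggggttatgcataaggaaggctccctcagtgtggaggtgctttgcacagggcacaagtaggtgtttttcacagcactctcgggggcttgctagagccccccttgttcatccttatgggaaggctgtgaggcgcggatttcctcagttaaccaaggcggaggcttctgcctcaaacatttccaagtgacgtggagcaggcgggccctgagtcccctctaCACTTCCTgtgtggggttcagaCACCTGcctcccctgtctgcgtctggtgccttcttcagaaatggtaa
Cd3g promoter, chr9:44980382-44980681, minus strand: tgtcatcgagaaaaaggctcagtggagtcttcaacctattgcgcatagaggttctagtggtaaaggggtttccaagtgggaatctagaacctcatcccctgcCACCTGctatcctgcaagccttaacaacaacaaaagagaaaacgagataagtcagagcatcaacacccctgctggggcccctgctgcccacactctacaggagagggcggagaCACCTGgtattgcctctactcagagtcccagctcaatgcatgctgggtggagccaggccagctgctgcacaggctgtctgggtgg
The E-box word was at -112 in Cd3d, at +3 in Cd3e and at -148 and -35 in Cd3g, counted from the RefSeq start, whose first base is 0. The ETS-type word was at -200 in Cd3d and at -19 in Cd3e, and it was not in the Cd3g window. On either strand the E-box word is in 6640 of 32851 RefSeq promoters of this length (20.2%), and the ETS-type word in 1338 (4.07%). TATAAA, the TATA box word, is in 13.6% of those promoters and TGTGGT, a Runx-type word, in 16.8%. Neither was in any of the 3 windows on either strand. The words were chosen after the sequences had been read, they do not overlap one another in these windows, and a match describes letters, not a bound site.

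All 155 cells had CD3 transcripts by the rule, and most had several kinds. Cd3d was found in 72 of 82 T cells of replicate 1 and 63 of 73 of replicate 2, Cd3g in 63 and 72, and Cd3e in 39 and 56. All 3 genes were seen in 30 and 52 cells, exactly 2 of them in 32 and 14, and only 1 in 20 and 7. Trac, the constant part of the alpha chain (chr14:54220521-54224206), had a UMI in 45 and 60 cells, and Trbc2, a constant part of the beta chain (chr6:41546730-41548352), in 69 and 69. Of the 155 cells, 146 held a transcript of Trbc1 or Trbc2, near-identical genes between which reads may be shared, and 2 held neither Trac nor a Trbc gene.

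The 5 marker genes summed to 24.8 per 10000 UMIs in T cells of replicate 1 and 55.3 in replicate 2. In free RNA, taken from barcodes under 100 UMIs, the same sum was 0.110 and 0.267 per 10000, and in microglia-marker cells (at least 10 per 10000 of the microglia sum) 0.0827 and 0.139. The T cells were chosen on these 5 genes, so their higher sums follow from the rule, as do the Cd3d shares below, and are a description only. The part of free RNA was not tested. After each cell was thinned to 1000 UMIs, Cd3d was found in 62.2% and 58.9% of T cells, against 0.258% and 0.169% of microglia-marker cells. Unthinned shares were 87.8% and 86.3% of T cells, against 0.587% and 0.557% of microglia-marker cells. Median depth was 1557 and 3062 UMIs per cell in T cells, against 4573.5 and 5617.5 UMIs in microglia-marker cells, so the deeper cells had the lower shares.

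**Figure D1:**
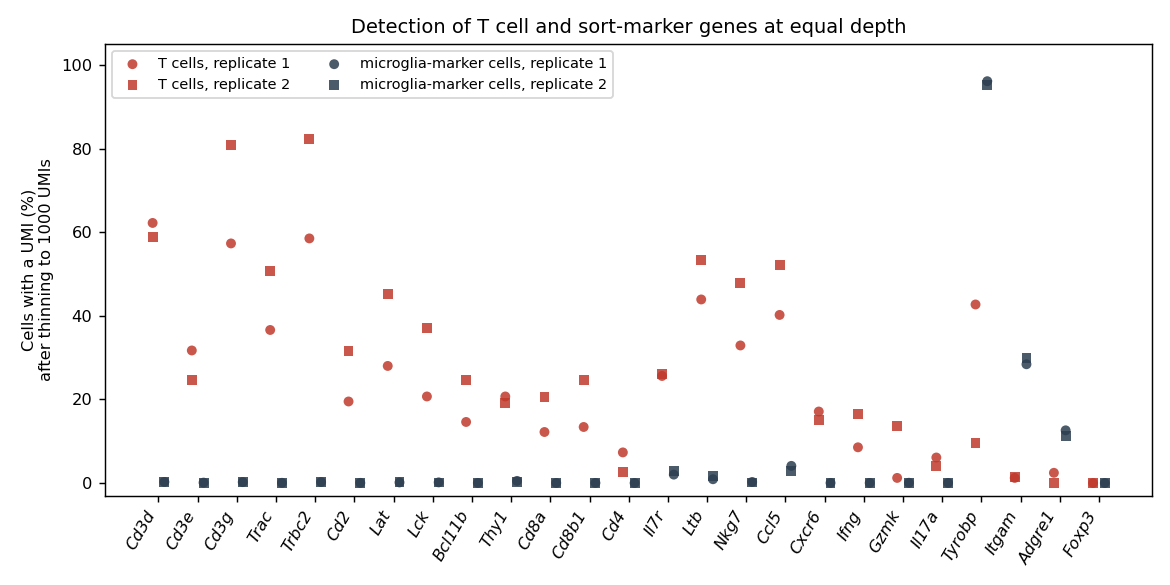
Share of cells with at least 1 UMI of a gene after thinning each cell to 1000 UMIs, in T cells (left of each pair) and in microglia-marker cells, for 25 T cell and sort-related genes, with circles for replicate 1 and squares for replicate 2. Cd3d stood at 62.2% and 58.9% of T cells, against 0.258% and 0.169% of microglia-marker cells.

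T cells were 0.545% of the cells in replicate 1 (95% exact binomial interval 0.434 to 0.676) and 0.923% in replicate 2 (0.724 to 1.16), a mean of 0.734% ± 0.267 (SD, n = 2). Intervals here cover counting error only. No T cell barcode occurred in both libraries, although 31 cell barcodes did. Members just inside the limits were 7 and 0 cells with exactly 2 marker UMIs, 12 and 2 with a single CD3 UMI, and 13 and 1 with a microglia sum over 5 per 10000. Just outside them were 7 and 8 cells of low microglia sum with a CD3 UMI as their only marker UMI, and 0 and 3 cells with too high an S100a8 and S100a9 sum.

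The T cells of replicate 1 fell into 2 ranges by myeloid transcripts, drawn in the plot of marker sums per cell. Summed over 14 myeloid marker genes, such as Lyz2, Apoe and C1qa, the median T cell held 49.8 per 10000 UMIs in replicate 1 and 14.6 in replicate 2, with highest values of 2461 and 758. In replicate 1, 12 T cell barcodes had at least 500 myeloid UMIs per 10000, a limit chosen after seeing the data, and 1 had in replicate 2. Those 12 were large, with a median of 9247 UMIs, and held 49.1% of all UMIs of the T cells in replicate 1 and 94.7% of their myeloid UMIs. All 12, and the 1 in replicate 2, also had a Trbc transcript, and 5 and 0 had a CD8 transcript. The 5 T cell markers summed to 5.36 per 10000 UMIs in the 12 barcodes, against 43.5 in the other 70 T cells of replicate 1. Scrublet, a doublet caller, marked 3 of the 82 T cells in replicate 1, all 3 of them among those 12. It marked no cell of replicate 2, where 2 of the 73 T cells were among the 501 top-scoring cells. The 1 barcode of high myeloid sum in replicate 2 was 1 of these 2. The part of doublets in these barcodes was not tested.

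**Figure D2:**
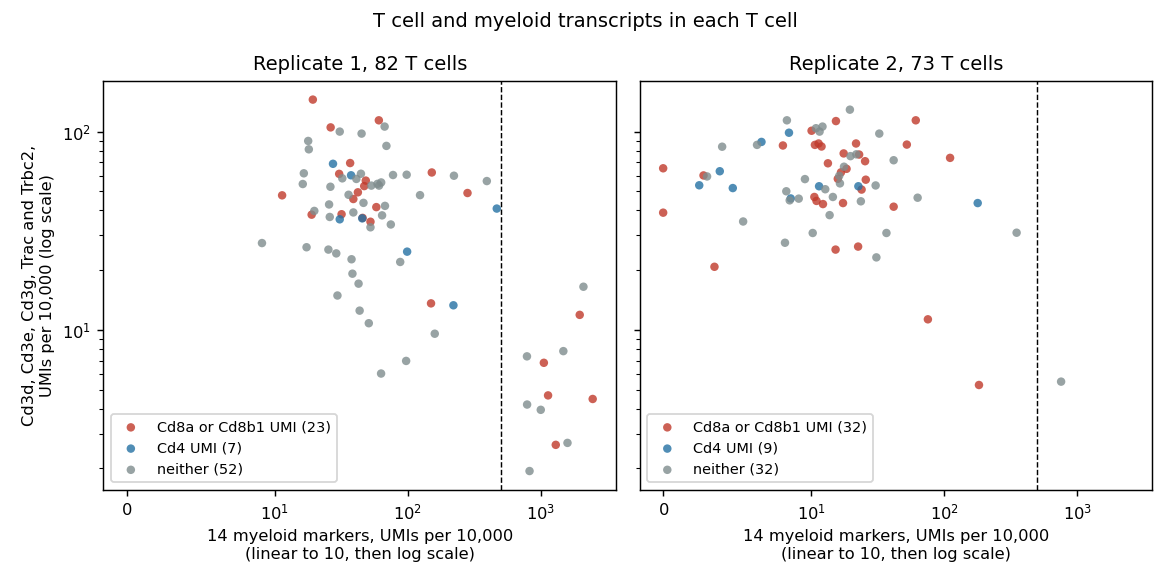
Each point is 1 T cell, with the sum of 14 myeloid markers per 10000 UMIs on the horizontal axis (linear up to 10, then logarithmic) and the sum of the 5 T cell markers on the vertical axis (logarithmic), 1 panel per replicate, coloured by Cd8a or Cd8b1 UMIs (23 and 32 cells), Cd4 UMIs (7 and 9) or neither (52 and 32). The dashed line stands at 500 myeloid UMIs per 10000, with 12 T cells of replicate 1 and 1 of replicate 2 at or past it.

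Summed over whole classes, the 14 myeloid markers took 742 and 63.9 UMIs per 10000 in T cells, against 1642 and 851 in the other cells under the microglia limit. All 14 were detected in T cells. The sum was 77.9 and 34.4 in the 70 and 72 T cells under 500 per 10000, and 1201 and 1016 in free RNA. Their part in the T cell results was not tested, and counts are given below also without the 13 barcodes. The B and plasma cell genes Cd79a, Ms4a1, Pax5, Ebf1 and Jchain had 0 UMIs in T cells, and the B and plasma cell list summed to 0.836 and 1.19 per 10000, against 1.68 and 29.9 in the other cells under the microglia limit. The dendritic cell list, which includes class II genes, summed to 36.3 and 54.8 in T cells, against 9.24 and 59.5 in the other cells, with Clec9a and Xcr1 at 0. Cd74, the class II chaperone, was concentrated in few cells: the top 4 T cells held 78.9% of its 379 UMIs in replicate 1 and 100% of its 638 UMIs in replicate 2.

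CD45 transcripts were higher in T cells and those of CD11b and F4/80, the myeloid markers of the gate, lower. Ptprc, which encodes CD45, was found in 59 and 58 T cells. It stood at 462 and 680 CPM (UMIs per 1000000 UMIs of the class) in T cells, against 136 and 214 CPM in the other cells under the microglia limit, and was higher in T cells (log2 fold change 1.54, SE 0.26, edgeR adjusted p = 0.00429). Itgam, which encodes CD11b, was found in 9 and 4 T cells, and Adgre1, which encodes F4/80, in 8 and 0. Itgam stood at 47.8 and 22.3 CPM in T cells, against 107 and 151 CPM, and was lower in T cells (-2.05, SE 0.39, adjusted p = 0.00825). Adgre1 stood at 39.8 and 0 CPM, against 156 and 94.7 CPM, and was lower too (-2.93, SE 0.60, adjusted p = 0.0132). A transcript of at least 1 of these myeloid gate genes was seen in 15 and 4 T cells. Surface CD3, CD11b and F4/80 protein are not among the values used here.

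To see what else the T cells expressed, their summed UMIs were compared with those of the remaining cells under the microglia limit (5680 and 1193 cells, called other low-microglia cells), with the library as a block. Of 8248 genes tested, 611 were higher in T cells (7.41% of the genes tested) and 393 lower (4.76%), at an adjusted p under 0.05. The median log2 fold change over all genes was -0.10, and -0.05 with genes at 0 UMIs in 1 class set to their bound. There were 254 such genes. Their direction was fixed by the 0, so a call on them is no test of direction. Genes with few UMIs in the other cells, such as Cd8a, Ifng, Cxcr6 and Il17a, could not pass the low-count filter through those cells. Calls on such genes are likewise a description. Without the 13 T cell barcodes of high myeloid sum, 686 genes were higher and 1278 lower, and the median over all genes was -0.31. With the block, these fits measure only how class differences vary between 2 libraries, with a spread shared by all classes fitted. The fitted changes are scaled by TMM, so they differ from plain CPM ratios.

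Other T cell genes, of receptor signalling, costimulation, adhesion and T cell identity, were higher in T cells almost throughout. Of 24 such genes, none used in the rule, 23 passed the filter on low counts and 22 were higher in T cells, with none lower and a median log2 fold change of 8.95. Of the 23, 3 had 0 UMIs in the other cells and so passed the filter through the T cells alone, which fixed their direction. Members with only a few UMIs there, such as Lck, Lat, Thy1 and Trbc1, could not pass the filter through the other cells either. Their calls are a description and no independent support. Lck, the kinase that starts receptor signalling, stood at 108 and 305 CPM in T cells, against 0.100 and 0.216 CPM in the other low-microglia cells (10.05, SE 0.55, adjusted p = 7.61e-06). Lat, the membrane scaffold on which signalling complexes form, stood at 147 and 550 CPM, against 0.578 and 0.216 CPM (8.80, SE 0.60, adjusted p = 1.56e-05). In both libraries T cells were far above the other cells for these genes, with no overlap. Thy1, a surface glycoprotein of mouse T cells, stood at 151 and 204 CPM, against 0.0502 and 0.216 CPM (10.62, SE 0.54, adjusted p = 5.12e-06). Trbc1, the other beta constant gene (chr6:41538218-41539881), stood at 223 and 650 CPM, against 0.201 and 0.108 CPM (10.61, SE 0.49, adjusted p = 4.15e-06). Cd28, a costimulatory receptor, stood at 199 and 197 CPM, against 14.1 and 3.66 CPM (4.58, SE 0.49, adjusted p = 0.000330).

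Some of these genes had few or no UMIs among the other low-microglia cells, so their size is given as a bound or a counting interval. Themis, an adaptor needed for T cell selection, had 0 UMIs there and was at least 1007-fold higher in T cells, against a floor of 3 counts over the class. Zap70, the kinase recruited to CD3, had 26 UMIs in T cells and 3 in the other cells, a CPM ratio of 818 (95% counting interval 251 to 4222, adjusted p = 0.000612). Lcp2, an adaptor that myeloid cells share, was the member that did not pass: 91.6 and 89.1 CPM in T cells, against 55.3 and 57.5 CPM (0.50, SE 0.30, adjusted p = 0.306). Most of these listed genes were thus higher in T cells than in the other low-microglia cells. Trbc1 may share reads with Trbc2, a gene of the rule, and with all T cells included none of the 24 passed against NK cells.

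Both coreceptors and most lineage factors were higher in T cells, Zbtb7b being the exception. Of 10 lineage genes tested, 9 were higher in T cells, with none lower and a median of 8.71. Of the 10, 2 had 0 UMIs in the other low-microglia cells, which fixed their direction. Cd8b1 (chr6:71322788-71337494, plus strand), a chain of the CD8 coreceptor, was 1 of them. It stood at 139 and 405 CPM in T cells, at least 4529-fold higher. Cd8a (chr6:71373427-71379173, plus strand), the other chain, had 86 UMIs in T cells and 1 in the other cells (ratio 8115, counting interval 1418 to 324211, adjusted p = 1.48e-05). Cd4 (chr6:124864692-124888221, minus strand) stood at 31.9 and 33.4 CPM in T cells, against 1.46 and 0.216 CPM (5.12, SE 0.90, adjusted p = 0.00504). Both coreceptors were above the other cells in both libraries.

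Among lineage factors, Runx3, which supports CD8 and killer programmes, stood at 195 and 175 CPM in T cells, against 28.2 and 61.0 CPM (1.92, SE 0.36, adjusted p = 0.00762). Gata3, a factor of T cell development and of type 2 helper cells, stood at 31.9 and 78.0 CPM, against 0.100 and 0 CPM (8.96, SE 1.01, adjusted p = 0.000865). Tbx21 and Eomes, the T-box factors of interferon gamma producers, had 14 and 13 UMIs in T cells, against 2 and 1 in the other cells (ratio 661, counting interval 152 to 5988, adjusted p = 0.00107 for Tbx21, and ratio 1227, counting interval 184 to 52132, adjusted p = 0.00321 for Eomes). Zbtb7b, the CD4 lineage factor, did not pass (7.97 and 29.7 CPM in T cells, against 17.9 and 23.1 CPM, adjusted p = 0.811).

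Killer and effector genes were higher in T cells for much of their list. Of 22 cytotoxic effector genes 19 were tested, and 11 were higher and 2 lower, with a median of 5.26. Without the 13 barcodes of high myeloid sum 12 were higher and 3 lower. Ccl5, a chemokine of effector T and NK cells, stood at 2494 and 6725 CPM in T cells, against 22.9 and 91.9 CPM (6.24, SE 0.79, adjusted p = 0.00211). Nkg7, a granule membrane protein, stood at 438 and 1318 CPM, against 0.0502 and 0.754 CPM (11.42, SE 0.82, adjusted p = 0.000202). Klrd1, which encodes the lectin CD94, stood at 267 and 175 CPM, against 3.49 and 10.5 CPM (4.95, SE 0.55, adjusted p = 0.000619). T cells were above the other cells in both libraries for each of these.

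Ifng, interferon gamma, stood at 108 and 219 CPM in T cells, with 86 UMIs there and 1 in the other low-microglia cells (ratio 8115, counting interval 1418 to 324211, adjusted p = 2.25e-05). Gzmb, a granzyme, had 137 UMIs in T cells and 3 in the other cells (ratio 4309, counting interval 1444 to 21153, adjusted p = 0.000686). A single T cell of replicate 2 held 87 of that library's 124 Gzmb UMIs. Gzmk (chr13:113171608-113225908, minus strand), a granzyme of memory-type CD8 cells, stood at 15.9 and 223 CPM. It had 0 UMIs in the other cells, which fixed its direction, and was at least 2013-fold higher. The 2 members lower in T cells are also expressed by myeloid cells: the chemokine Ccl3 stood at 211 and 204 CPM in T cells, against 372 and 561 CPM (-1.30, SE 0.31, adjusted p = 0.0221), and the factor Zeb2 at 163 and 33.4 CPM, against 251 and 344 CPM (-1.85, SE 0.48, adjusted p = 0.0373). Gzma did not pass (7.97 and 48.3 CPM in T cells, against 0.0251 and 1.94 CPM, adjusted p = 0.105), nor did Ccl4 (689 and 980 CPM, against 582 and 823 CPM, adjusted p = 0.873).

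Effector transcripts were shared out over many cells. Ccl5 was found in 40 of 82 and 41 of 73 T cells, Nkg7 in 37 and 43, and both together in 34 and 40. After thinning, Ccl5 was found in 40.2% and 52.1% of T cells, against 4.1% and 2.97% of microglia-marker cells, and unthinned in 48.8% and 56.2%, against 11.1% and 8.61%. Ifng was found in 12 and 21 T cells, of which 9 and 18 also had Ccl5. Gzmk was found in 3 and 22 T cells, and after thinning in 1.22% and 13.7% of T cells, a gap between the libraries that was not tested. All 25 of these cells held Ccl5 and Nkg7.

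**Figure D3:**
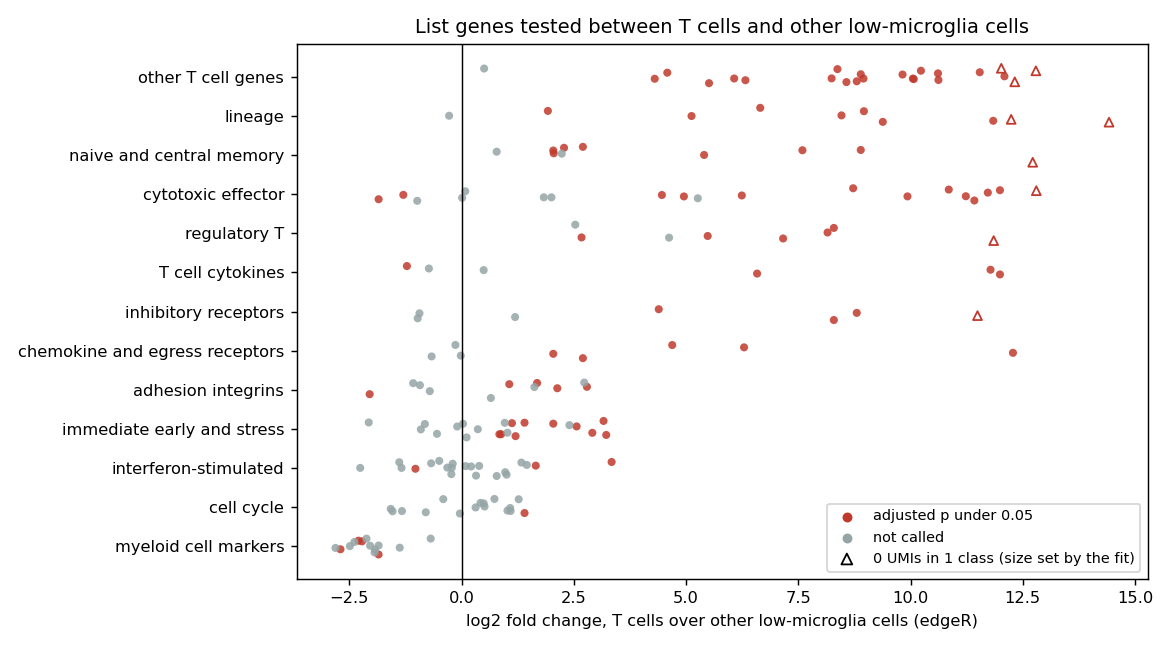
Log2 fold change of T cells over other low-microglia cells for the tested members of 13 gene lists, red where called and grey where not. Triangles mark genes with 0 UMIs in 1 of the classes, whose plotted size is set by the fit and is no measured fold; 22 of 23 T cell genes were called higher, while 4 of 14 myeloid markers were called lower.

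Genes of naive and central memory cells were also higher, in the same pool of cells. Of 10 such genes 8 were higher in T cells and none lower, with a median of 2.49. Il7r, the interleukin 7 receptor, stood at 227 and 431 CPM in T cells, against 45.3 and 75.1 CPM (2.28, SE 0.36, adjusted p = 0.00270). Tcf7, a factor of naive and stem-like memory cells, stood at 59.7 and 126 CPM, against 0.0753 and 0.323 CPM (8.89, SE 0.72, adjusted p = 2.9e-05). Lef1, its relative, stood at 71.7 and 74.3 CPM, against 0.0502 and 1.08 CPM (7.59, SE 1.02, adjusted p = 0.00231). All 3 were higher in T cells of both libraries. Klf2, a factor that promotes exit from tissue, stood at 343 and 758 CPM, against 77.9 and 153 CPM (2.05, SE 0.25, adjusted p = 0.000640), and its target S1pr1, the egress receptor, at 55.8 and 145 CPM, against 28.7 and 16.6 CPM (2.04, SE 0.50, adjusted p = 0.0335). Dapl1, another member, was found at 15.9 and 134 CPM in T cells with 0 UMIs in the other cells, which fixed its direction (at least 1258-fold).

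Tissue residence genes gave fewer calls, with 3 of 7 tested higher and none lower (median 2.73). Cd69, which holds cells in tissue by blocking S1pr1, stood at 187 and 356 CPM in T cells, against 5.88 and 22.3 CPM (4.28, SE 0.50, adjusted p = 0.000735). Cxcr6 (chr9:123806475-123811760), a chemokine receptor of resident T cells, stood at 135 and 271 CPM, with 107 UMIs in T cells and 1 in the other cells (ratio 10097, counting interval 1774 to 402481, adjusted p = 1.03e-05). Itga1 stood at 31.9 and 18.6 CPM, against 0.703 and 4.31 CPM (3.53, SE 0.90, adjusted p = 0.0310). Cxcr6 was found in 22 and 34 T cells. Rgs1 did not pass, at 745 and 769 CPM in T cells, against 816 and 868 CPM (adjusted p = 0.547).

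Inhibitory receptor genes were higher for 4 of 7 tested and lower for none, with a median of 4.39, and without the 13 barcodes of high myeloid sum 4 were higher and 2 lower. Ctla4, a brake on CD28 costimulation, stood at 59.7 and 96.6 CPM in T cells, against 0.0753 and 0.539 CPM (8.29, SE 0.91, adjusted p = 0.000316). Cd160 had 0 UMIs in the other cells, which fixed its direction, and was at least 598-fold higher. Tox, a factor of chronically stimulated cells, had 19 UMIs, against 3 (ratio 598, counting interval 176 to 3153, adjusted p = 0.000924). Lag3, Havcr2 and Entpd1 did not pass. Havcr2, also a gene of myeloid cells, stood at 31.9 and 18.6 CPM in T cells, against 33.1 and 53.9 CPM (adjusted p = 0.155).

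Foxp3 (chrX:7573644-7595245), the locus that carries the reporter in these mice, had 0 UMIs in the T cells of either library. A count of 0 allows up to 3 counts, which is 11.9 and 11.1 CPM. The exact binomial interval for 0 of 82 and 0 of 73 cells with a UMI reaches 4.40% and 4.93%. Both limits are for counted Foxp3 UMIs. Whether transcripts of the locus with the reporter are counted as Foxp3 was not tested. The limits therefore do not extend to cells that express the gene. Il2ra, the interleukin 2 receptor chain that regulatory T cells display, was found in 3 and 0 T cells. Other genes of the regulatory list are shared with activated T cells, and 6 of 8 tested were higher with none lower (median 6.32). Of the 8, 1 had 0 UMIs in the other low-microglia cells, which fixed its direction. Tnfrsf18, which encodes GITR, stood at 108 and 189 CPM in T cells, against 0.276 and 0.754 CPM (8.15, SE 0.41, adjusted p = 4.15e-06). Tnfrsf4, which encodes OX40, stood at 116 and 55.7 CPM, against 0.628 and 0.323 CPM (7.16, SE 0.73, adjusted p = 0.000332), and Ikzf2, a zinc finger factor, at 104 and 44.6 CPM, against 1.53 and 1.29 CPM (5.48, SE 0.56, adjusted p = 0.000199). Regulatory T cells were thus not seen through counted Foxp3 UMIs at this depth, although genes of their list were.

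Gamma delta receptor transcripts were found in few cells. Of 10 gamma delta genes 3 passed the filter, the constant genes Tcrg-C1, Tcrg-C2 and Tcrg-C4, all with 0 UMIs in the other low-microglia cells. They passed it through the T cells alone, which fixed their direction, so they are described by their bounds, at least 440-fold, 849-fold and 535-fold. Tcrg-C1 and Tcrg-C2 are near-identical, so reads may be shared between them. A Tcrg constant transcript was found in 10 and 15 T cells, and Trdc, the delta constant gene (chr14:54142851-54148868), in 2 and 6. All 8 cells with Trdc also held a Trbc transcript. Among 175 variable segments in the files, T cells had 11 UMIs in 8 cells of replicate 1 and 26 UMIs in 16 cells of replicate 2.

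Of 18 T cell cytokine genes 6 were tested, with 3 higher in T cells and 1 lower. Ltb, lymphotoxin beta, stood at 426 and 817 CPM in T cells, against 2.29 and 12.2 CPM (6.58, SE 0.45, adjusted p = 1.03e-05), and was found in 48 and 58 T cells. Il17a (chr1:20730905-20734496), an inflammatory cytokine, stood at 131 and 100 CPM, with 60 UMIs in T cells and 1 in the other cells (ratio 5662, counting interval 978 to 227306, adjusted p = 0.000114). It came from 7 and 3 T cells, with up to 15 and 14 UMIs in a cell. Of these 10 cells all held a Trbc transcript, 8 held Rora, 1 held Cd4, and none held Trdc, Cd8a or Cd8b1. Tgfb1 stood at 104 and 89.1 CPM, against 163 and 240 CPM, and was lower in T cells (-1.22, SE 0.26, adjusted p = 0.0150). Tnf did not pass, at 47.8 and 66.8 CPM, against 65.9 and 104 CPM (adjusted p = 0.301).

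Homing genes rose for part of their lists: 5 of 8 chemokine and egress receptors tested were higher and none lower (median 2.37), as were 4 of 11 adhesion genes, with 1 lower (median 1.06), or 2 lower without the 13 barcodes of high myeloid sum. Cxcr3, a receptor that draws effector T cells to inflamed tissue, stood at 31.9 and 89.1 CPM in T cells, against 1.88 and 1.94 CPM (4.69, SE 0.57, adjusted p = 0.000612). Itga4, a chain of the integrin VLA-4 used to cross brain vessels, stood at 135 and 215 CPM, against 25.0 and 47.8 CPM (2.13, SE 0.34, adjusted p = 0.00312). Itgal, a chain of LFA-1, stood at 63.7 and 134 CPM, against 15.0 and 43.2 CPM (1.68, SE 0.42, adjusted p = 0.0277). T cells of both libraries were above the other cells for these. Ccr2 did not pass and its libraries went opposite ways, with 116 and 74.3 CPM in T cells, against 22.5 and 211 CPM (adjusted p = 0.982).

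Stress and immediate early genes were higher for 10 of 21 tested and lower for none (median 0.96), and without the 13 barcodes of high myeloid sum for 9, with 4 lower. Dnajb1, a heat shock cochaperone, stood at 355 and 602 CPM in T cells, against 36.7 and 53.6 CPM (3.22, SE 0.28, adjusted p = 5.09e-05). Hspa1b, a heat shock protein gene nearly identical to Hspa1a, stood at 382 and 709 CPM, against 21.4 and 110 CPM (3.16, SE 0.36, adjusted p = 0.000380). Dusp2, a phosphatase induced by receptor signalling, stood at 335 and 583 CPM, against 27.3 and 94.5 CPM (2.91, SE 0.36, adjusted p = 0.000619). All 3 were above the other cells in both libraries. Of 21 interferon-stimulated genes 2 were higher, Ifi203 and Ifi208 (adjusted p = 0.0434 and 0.00982), and 1 lower, Bst2 (adjusted p = 0.0374). Of 16 cell cycle genes 1 was higher, Hmgb2, at 534 and 876 CPM in T cells, against 171 and 306 CPM (1.40, SE 0.30, adjusted p = 0.0152). Of 6 glucocorticoid response genes 2 were higher, Tsc22d3 (1.40, SE 0.34, adjusted p = 0.0256) and Txnip (1.54, SE 0.31, adjusted p = 0.0107).

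Myeloid markers were lower in T cells for 4 of 14 and higher for none (median -2.08), and for 14 of 14 without the 13 barcodes of high myeloid sum (median -4.39). Fcgr1, a high-affinity antibody receptor, stood at 63.7 and 14.9 CPM in T cells, against 140 and 334 CPM (-2.70, SE 0.63, adjusted p = 0.0278). Apoe, a lipid carrier, stood at 41721 and 2332 CPM, against 101982 and 46357 CPM, and did not pass (-2.81, SE 0.79, adjusted p = 0.0647). Replicate 1 was the higher of the libraries for both genes in T cells. The genes furthest lower in T cells, by the rule for named genes, were Ttr (transthyretin, of choroid plexus), Ptgds (prostaglandin D synthase), Igha and Jchain (of antibody-secreting cells) and Ctsk (cathepsin K, a protease). Ttr stood at 3.98 and 0 CPM in T cells, against 1403 and 65.7 CPM, a ratio of 598 higher in the other cells (counting interval 107 to 23635, adjusted p = 0.0398). Jchain had 0 UMIs in T cells, which fixed its direction, and was at least 9.96-fold lower.

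Of the marker lists of other cell types, those of NK, innate lymphoid, dendritic, and endothelial and neural cells held genes that were higher in T cells. Eomes, Txk and Gata3 of those lists also stand in the T cell lists. Of 5 NK cell markers tested 2 were higher in T cells, Eomes and Txk, and none lower (median -1.66), and without the 13 barcodes of high myeloid sum 2 were higher and 3 lower. That list summed to 60.8 and 10.5 per 10000 in T cells, against 99.1 and 81.6 in the other low-microglia cells, and to 98.8 and 87.1 in free RNA. Its members Tyrobp, Fcer1g and Fcgr3 are also myeloid genes. Of 7 innate lymphoid genes 3 were higher, Rora and Gata3 among them, and none lower (median 4.38). Rora, a nuclear receptor that T cells also use, stood at 116 and 134 CPM in T cells, against 6.63 and 3.77 CPM (4.38, SE 0.41, adjusted p = 9.11e-05).

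Of 7 dendritic cell markers 1 was higher, Ccr7, a receptor that naive T cells share, at 35.8 and 55.7 CPM in T cells, against 1.63 and 15.1 CPM (2.70, SE 0.67, adjusted p = 0.0274). Of 6 B and plasma cell markers 2 were lower, Jchain and Cd22. Of 4 microglia markers tested, none of them used in the rule, 1 was lower, Fcrls, at 104 and 37.1 CPM, against 276 and 222 CPM (-2.03, SE 0.41, adjusted p = 0.0110), and 3 were lower without the 13 barcodes. The whole microglia list summed to 10.6 and 2.64 per 10000 in T cells, against 17.3 and 12.8. None of 8 neutrophil markers passed, and 2 were lower without the 13 barcodes, at sums of 1.23 and 0.186 per 10000 in T cells, against 1.89 and 2.08. None of 4 red cell markers passed, at sums of 0.0797 and 0.149, against 1.51 and 0.0991, nor did the 1 mast cell marker tested. Of 2 endothelial and neural markers tested 1 was higher, the adhesion gene Pecam1, at 11.9 and 26.0 CPM, against 0.778 and 2.48 CPM (3.50, SE 0.83, adjusted p = 0.0232), and none without the 13 barcodes. The part of other cell types in these values was not tested.

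Split by coreceptor, the T cells held more cells with a counted CD8 UMI, of either of 2 genes, than with a counted Cd4 UMI. A Cd8a or Cd8b1 UMI was found in 23 of 82 and 32 of 73 T cells, a share of 28.0% (95% exact binomial interval 18.7 to 39.1) and 43.8% (32.2 to 55.9), with a mean of 35.9% ± 11.2 (SD, n = 2). A Cd4 UMI was found in 7 and 9 T cells, a share of 8.54% (3.50 to 16.8) and 12.3% (5.80 to 22.1), with a mean of 10.4% ± 2.68 (SD, n = 2). No cell held both, and 52 and 32 cells held neither. Cd4 had 17 UMIs over its 16 T cells, against 86 over 38 for Cd8a and 144 over 45 for Cd8b1. The shares are thus of cells with a counted UMI, not of CD8 and CD4 lineages. Whether Cd4 cells were missed more often was not tested. In microglia-marker cells, unthinned, Cd8a was found in 0.106% and 0.135%, Cd8b1 in 0.164% and 0.186%, and Cd4 in 0.2% and 0.135%. Cells without either coreceptor UMI may hold one that was not caught, at median depths of 1489.5 and 2911 UMIs, against 1896 and 2931 UMIs in Cd8 cells and 1454 and 4337 UMIs in Cd4 cells. With 7 and 9 Cd4 cells the subsets were too small for a fit, so what follows is a description of cells, with no test.

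Ccl5 and Nkg7 were found in a larger share of Cd8 cells than of the others in both libraries, whereas Gzmb and Klrd1 were so in replicate 2 alone. Ccl5 had a UMI in 14 of 23 and 28 of 32 Cd8 cells, in 2 of 7 and 0 of 9 Cd4 cells, and in 24 of 52 and 13 of 32 cells with neither. Nkg7 had a UMI in 16 and 30 Cd8 cells, in 2 and 1 Cd4 cells, and in 19 and 12 with neither. The exact intervals of Ccl5 were 38.5% to 80.3% of Cd8 cells and 3.67% to 71.0% of Cd4 cells in replicate 1. In replicate 2 they were 71.0% to 96.5% and up to 33.6%. Such intervals cover counting error over the cells of 1 library and are no test between the sets. Gzmb was found in 2 and 12 Cd8 cells, in 0 and 1 Cd4 cells and in 7 and 4 with neither, and Klrd1 in 7 and 13, 2 and 1, and 18 and 5. In replicate 1 cells with neither thus held them in a larger share than Cd8 cells did. Gzmk was found in 2 and 18 Cd8 cells, in 1 and 4 with neither and in no Cd4 cell, where the exact interval for cells with a UMI reaches 41.0% and 33.6%. Perforin, Prf1, was found in 1 and 7 Cd8 cells, in no Cd4 cell and in 0 and 2 with neither.

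Cd28 and Il7r were found in a larger share of Cd4 cells than of the others. Cd28 had a UMI in 5 of 7 and 8 of 9 Cd4 cells, in 6 of 23 and 8 of 32 Cd8 cells, and in 14 of 52 and 13 of 32 cells with neither. Its level was 787 and 431 CPM in Cd4 cells, 99.8 and 103 CPM in Cd8 cells, and 204 and 226 CPM in cells with neither. The Cd4 cells were thus above both other sets in both libraries. In replicate 1 the highest myeloid sum was 468 per 10000 in Cd4 cells, against 2461 in Cd8 cells and 2097 in cells with neither. The large barcodes of high myeloid sum thus enter the Cd8 cells and the cells with neither, and no Cd4 cell is among them. Their part in the CPM values of Cd28 and Ifi27l2a was not tested. Il7r was found in 4 and 8 Cd4 cells, in 7 and 12 Cd8 cells, and in 21 and 21 with neither. Ifi27l2a, an interferon-induced gene, stood at 3363 and 5417 CPM in Cd4 cells, at 776 and 1324 CPM in Cd8 cells and at 1818 and 943 CPM in cells with neither, and in replicate 2 a single Cd4 cell held 139 of the 201 UMIs of the Cd4 cells.

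Most cells with Il17a or Trdc had neither coreceptor UMI. Il17a was found in 6 and 3 of them, in 1 and 0 Cd4 cells and in no Cd8 cell. Tcrg-C1 was found in 4 and 4 of them and in no Cd8 or Cd4 cell, and Trdc in 2 and 5 of them and in 0 and 1 Cd8 cells. Tcrg-C2, which may share reads with Tcrg-C1, was found in 3 and 4 of them and in 1 and 6 Cd8 cells. A Tcrg constant transcript of any kind was found in 4 and 7 Cd8 cells, 11 of the 25 T cells with one, and in no Cd4 cell. Cd40lg, the helper ligand that activates antigen-presenting cells, was found in 6 and 13 cells with neither, in 1 and 3 Cd4 cells, and in no Cd8 cell, where the exact interval for cells with a UMI reaches 14.8% and 10.9%. Rora was found in 12 and 15 cells with neither, in 2 and 5 Cd4 cells and in 1 and 6 Cd8 cells.

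**Figure D4:**
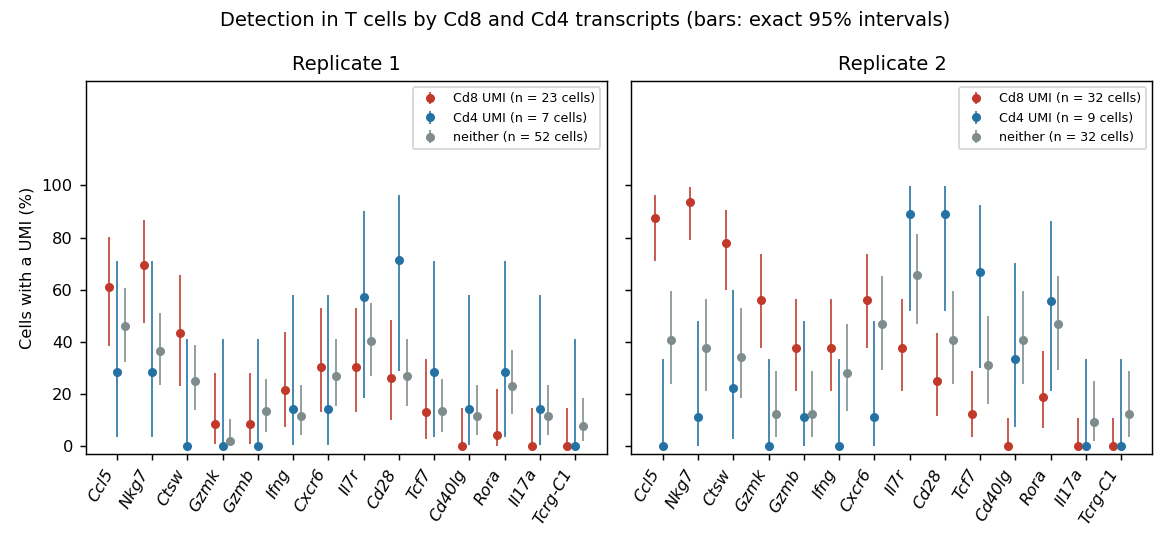
Percent of cells with at least 1 UMI of 14 genes in T cells with a Cd8a or Cd8b1 UMI (23 and 32 cells), with a Cd4 UMI (7 and 9) and with neither (52 and 32), 1 panel per replicate, with exact 95% binomial intervals as bars. Ccl5 stood at 60.9% and 87.5% of Cd8 cells and at 28.6% and 0% of Cd4 cells, while Cd28 stood at 26.1% and 25.0% of Cd8 cells and at 71.4% and 88.9% of Cd4 cells.

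Natural killer (NK) cells are the lymphocytes most like these T cells in the sort, and there were 15 and 11 of them. They were taken as cells of low microglia and S100 sums with 0 UMIs of Cd3d, Cd3e, Cd3g and Trac and at least 2 UMIs of Ncr1, Klrb1c, Klra8, Klra4 and Klre1, so those genes are not compared. The classes were fitted once a minimum of 10 cells per library replaced 20, a choice made after seeing the data. Of 8060 genes tested, 41 were higher in T cells (0.509% of the genes tested) and 2 lower (0.0248%), and at an unadjusted p under 0.05 they were 662 and 99. The median over all genes was 0.43, and 0.17 with genes at 0 UMIs in 1 class set to their bound. There were 1063 such genes, whose direction was fixed by the 0. Without the 13 T cell barcodes of high myeloid sum, 90 genes were higher and 17 lower, and without the library block 1 was higher and 0 lower. Myeloid markers summed to 742 and 63.9 per 10000 in T cells and 1204 and 65.8 in NK cells, and their part was not tested.

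Both CD8 chains, Cxcr6 and Il7r were called higher in T cells than in NK cells. Both CD8 chains and Cxcr6 had 0 UMIs in NK cells, which fixed their direction, so they are described by their bounds. Cd8b1 was at least 9.03-fold higher in T cells, at 139 and 405 CPM, and Cd8a at least 5.39-fold higher, at 83.6 and 241 CPM. Cxcr6 was at least 6.71-fold higher. Il7r had 173 UMIs in T cells and 1 in NK cells, a CPM ratio of 32.5 (counting interval 5.76 to 1292, adjusted p = 0.0244). Cd4 did not pass, at 31.9 and 33.4 CPM in T cells and 0 UMIs in NK cells (adjusted p = 0.528). Floors in so few NK cells are high, 30.7 CPM over the class, which keeps these bounds small. By list, 2 of 9 lineage genes tested were higher, Cd8a and Cd8b1, and 1 of 10 naive and central memory genes, Il7r. Cxcr6 was the 1 higher gene both of 7 residence genes and of 8 chemokine and egress receptors. The calls on Cd8a, Cd8b1 and Cxcr6 had their direction fixed by the 0 UMIs in NK cells. Ifi27l2a was the 1 higher of 21 interferon-stimulated genes and Dnajb1 the 1 higher of 21 stress genes. None of these lists held a lower gene. Without the 13 barcodes of high myeloid sum 1 T cell cytokine, 1 innate lymphoid gene and 1 glucocorticoid response gene were higher too, and 2 of 14 myeloid markers lower.

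Ifi27l2a stood at 1530 and 1738 CPM in T cells, against 78.1 and 21.4 CPM in NK cells, and was higher in T cells (5.46, SE 0.64, adjusted p = 0.0181). Dnajb1 stood at 355 and 602 CPM, against 156 and 257 CPM (1.68, SE 0.36, adjusted p = 0.0444), and Chd2, a chromatin remodeller, at 147 and 212 CPM, against 39.1 and 42.9 CPM (2.60, SE 0.52, adjusted p = 0.0366). Eef1b2, a translation elongation factor, stood at 892 and 1467 CPM, against 508 and 858 CPM (1.27, SE 0.26, adjusted p = 0.0400). T cells were above NK cells in both libraries for these 4 genes. Without TMM scaling the log2 ratios were smaller, at 1.10 and 1.17 for Dnajb1 and 0.79 and 0.76 for Eef1b2. Free RNA held Ifi27l2a at 823 and 1148 CPM. In replicate 2 a single Cd4 cell held most of its UMIs among the Cd4 cells. The part of either in the T cell values was not tested. Gm8369 had 0 UMIs in NK cells, which fixed its direction (at least 8.40-fold), and Mier1 had 1 UMI there (ratio 11.1, counting interval 1.92 to 446, adjusted p = 0.0400). The 2 genes lower in T cells were Car2, carbonic anhydrase, with 2 UMIs in T cells and 20 in NK cells (ratio 53.2 higher in NK cells, counting interval 12.9 to 469, adjusted p = 0.0321), and Spry2, a signalling inhibitor, with 3 UMIs in T cells and 18 in NK cells (ratio 31.9, counting interval 9.32 to 169, adjusted p = 0.0321).

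**Figure D5:**
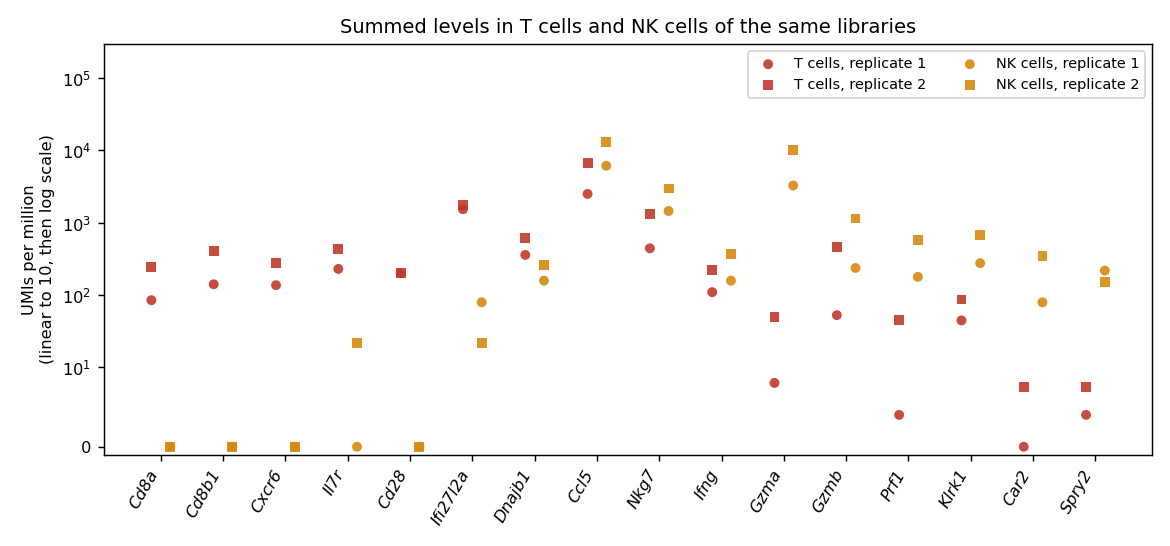
CPM in T cells (left of each pair) and NK cells for 16 genes, on an axis that is linear up to 10 and logarithmic above, with circles for replicate 1 and squares for replicate 2. Cd8b1 stood at 139 and 405 CPM in T cells and at 0 in NK cells, while Gzma stood at 7.97 and 48.3 CPM in T cells and 3261 and 10230 CPM in NK cells.

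With all T cells included, no killer gene was called between the lymphocyte classes. None of 20 cytotoxic genes tested and none of 10 NK cell markers passed, with medians of -1.01 and -2.76. Without the 13 barcodes of high myeloid sum 1 cytotoxic gene and 3 NK cell markers were lower in T cells, and with T cells at or below their median myeloid sum 3 and 2. Gzma stood at 7.97 and 48.3 CPM in T cells, against 3261 and 10230 CPM in NK cells (-7.56, SE 1.78, adjusted p = 0.341), and Prf1 at 3.98 and 44.6 CPM, against 176 and 579 CPM (-3.51, SE 0.83, adjusted p = 0.0936). For both genes the T cell values lay under the NK cell values without overlap, and neither passed the test. Ccl5 stood at 2494 and 6725 CPM in T cells, against 6131 and 13082 CPM (-0.63, SE 0.75, adjusted p = 0.860), and Ifng at 108 and 219 CPM, against 156 and 365 CPM (-0.18, SE 0.44, adjusted p = 0.937). Without TMM scaling the log2 ratios were -1.30 and -0.96 for Ccl5 and -0.60 and -0.76 for Ifng. Of the 24 other T cell genes none passed, with a median of 1.40, or 1.18 with genes at 0 UMIs in 1 class at their bound, while 4 were higher in T cells without the 13 barcodes. Cd2, an adhesion receptor of both lymphocyte types, stood at 139 and 464 CPM in T cells, against 156 and 343 CPM (0.69, SE 0.46, adjusted p = 0.655). Trbc1 stood at 223 and 650 CPM, against 58.6 and 322 CPM (1.69, SE 0.46, adjusted p = 0.151). Trbc2 stood at 701 and 1872 CPM, against 78.1 and 279 CPM in NK cells. It is a gene of the T cell rule, so its values are a description with no test.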

How the data were processed

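Raw UMI counts per gene and barcode were used as deposited by the authors, 1 matrix per library. The submitters' processing notes name Cell Ranger 4.0.0, STAR 2.5.1b and Seurat 4, with the builds GRCh38, GRCm38 and mm10, whose roles are not given in the sources used here. Per the labels, cells were sorted on CD45, CD11b, CD3 and F4/80 and read with droplet 3′ chemistry.

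Barcodes with at least 1000 UMIs, 500 genes and at most 10% mitochondrial UMIs were kept, and classes were set by UMI rules on marker genes. UMIs were summed per library and class and compared with edgeR 4.0.16 in R 4.3.3 (TMM, filterByExpr, quasi-likelihood test, Benjamini-Hochberg adjusted p under 0.05, library as a block). All classes of at least 20 cells per library entered 1 fit and shared its estimate of the spread. Genes used in a class rule were not tested. NK cells were too few for that minimum, so they entered a fit with a minimum of 10 cells, added after seeing the data. Cd8 and Cd4 T cells were described without a test. The classes of a library come from the same library, which pairs them, and deviations of T cells from their mean correlated with those of other low-microglia cells (r = 0.325 over 1370 genes) and NK cells (r = 0.509 over 1314 genes); this correlation is across genes. Ratios of low counts have 95% counting intervals, and shares have exact Clopper-Pearson intervals; both cover counting error only. A level at 0 UMIs allows up to 3 counts.

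Doublets were scored with Scrublet in scanpy 1.11.5 and kept in the main results: 1426 cells (9.48%) were marked in replicate 1, and 0 in replicate 2, where the caller did not work and the 501 top-scoring cells (6.33%) stood in for its calls in the alternative. The statistics were tested on simulated data. Results for some genes are not reported here. The T cell rule and the gene lists were chosen with earlier results of these data known, so they are no independent support. Named genes are those of the lists, plus, by a rule, the 5 (other low-microglia cells) or 10 (NK cells) genes with the largest called change in each direction, the same sign in both libraries and at least 50 CPM in the higher class, leaving out mitochondrial, ribosomal protein and rule genes. Alternatives were DESeq2 1.42.0, no filter on low counts, no block, a stricter cell filter, doublets removed, at least 2 CD3 UMIs, limits on myeloid UMIs in T cells (1 of them, at 500 per 10000, added after seeing the data) and a lower microglia limit. Gene coordinates are from GENCODE on GRCm38. Figures were drawn with matplotlib 3.10.9, and tables handled with pandas 2.3.3 and scipy 1.17.1 (Python 3.11.15).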

Additional observations from a re-analysis of the deposited data

Results flagged for a closer look

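T cell transcripts were also found in barcodes that the cell rule left out. Among 1134 barcodes with at least 500 but under 1000 UMIs in replicate 1, 21 met the UMI minimums, microglia limit and S100 limit of the T cell rule, and among 236 in replicate 2 there was 1. A count of 0 would have allowed 3 of either. Cells past the microglia limit that met the T cell minimums numbered 55 in replicate 1 and 33 in replicate 2, which is 0.646% and 0.557% of the microglia-marker cells. Their median depth was 6176 and 11006 UMIs, against 1557 and 3062 UMIs in the T cells. Their median microglia sum was 36.8 and 50.3 per 10000, their median myeloid sum was 904 and 866, and their T cell marker sum was 7.64 and 15.5 per 10000. Scrublet marked 27.3% of those in replicate 1, against 3.66% of T cells and 25.0% of the 12 T cells of high myeloid sum. It marked no cell of replicate 2, where 57.6% of them, against 2.74% of T cells, were among the 501 top-scoring cells. The part of doublets in these barcodes was not tested further.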

How the results depend on the processing

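Leaving out the library block, which is the pairing of classes by replicate, took the genes higher than in other low-microglia cells to 447 of the 611 and those lower to 178 (393 with it), and the genes higher than in NK cells to 1 (41 with it) and lower to 0 (2 with it; edgeR, with 93 at an unadjusted p under 0.05, and 5 by DESeq2 with the block). Against other low-microglia cells, the stricter cell filter gave 198 higher and 152 lower, no filter on low counts gave 735 lower, removal of doublets 715 lower, T cells at or below their median myeloid sum 1298 lower, and T cells under 500 myeloid UMIs per 10000 gave 1278 lower. Against NK cells, no filter gave 99 higher and 13 lower, removal of doublets 8 higher, at least 2 CD3 UMIs 4 higher and 1 lower, T cells at or below their median myeloid sum 55 lower, T cells under 500 myeloid UMIs 90 higher and 17 lower, and DESeq2 gave 5 lower. Fewer T cells than 82 and 73 enter under the stricter filter (25 and 58), the CD3 minimum (70 and 71) and removal of doublets (79 and 71). The same holds for the median myeloid limit (41 and 37) and the limit of 500 myeloid UMIs (70 and 72). The cause of the moves was not tested.

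Of 111 named calls against other low-microglia cells, none changed direction under the alternatives run. No longer past the threshold, among those that could be fitted, were 30 without the block, 29 of 90 under the stricter filter, 11 with doublets removed, 9 at the median myeloid limit, 6 with DESeq2, 5 with at least 2 CD3 UMIs, 5 with classes of at least 10 cells, 4 with no filter and 2 at 500 myeloid UMIs. Of 12 named calls against NK cells, 11 fell short without the block, 8 with at least 2 CD3 UMIs, 7 with doublets removed and 2 at the median myeloid limit; DESeq2 gave no adjusted p for 10. Without 1 replicate no test was possible, since no residual degrees of freedom stay, and the same sign in both libraries was itself a condition for genes named by the rule. The mean share of T cells moved between 0.510% and 0.769% under the alternatives and from 0.545% to 0.923% without 1 replicate, that with Cd8a or Cd8b1 between 35.1% and 38.4% (28.0% to 43.8% without 1 replicate), and that with Cd4 between 8.45% and 11.2% (8.54% to 12.3%). Under the stricter filter T cells were 0.211% of replicate 1 (25 cells, against 82 before) and 0.809% of replicate 2 (58 cells, against 73). The comparison with NK cells under the stricter filter and at 20 cells, and Cd8 against Cd4 T cells, could not be run for want of cells. Few cells, 155 T and 26 NK, and 2 libraries limit what depth can show.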

Other observations

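Some T cells carried transcripts of division. Mki67 or Top2a, genes of cycling cells, had a UMI in 11 T cells of replicate 1 and 10 of replicate 2. Of these 21 cells 10 held Cd8a or Cd8b1 and 16 held Ccl5. Xcl1, a chemokine that draws cross-presenting dendritic cells, was found in 14 and 12 T cells. Its level was 227 and 141 CPM in T cells, with 95 UMIs there and 2 in the other low-microglia cells (ratio 4482, counting interval 1207 to 37548, adjusted p = 1.85e-05). Ncr1 or Klrb1c, receptors of NK cells, were found in 6 and 3 T cells, and none of these 9 cells held Cd8a or Cd8b1. Class II transcripts were found in 9 and 5 T cells.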
